A study of Mus musculus with 6 samples.

Results

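GDF and BMP ligands and their antagonists were examined in cultured lung fibroblasts after an siRNA against Wt1. The set holds 9 genes, picked by symbol: the ligand genes Gdf6, Gdf10, Gdf15, Bmp2, Bmp4, Bmp6 and Inhba, and the antagonist genes Fst and Grem1. They are 9 of the 24061 genes in the count table, and all 9 were abundant enough to be tested among 14190 genes. Gdf6 and Gdf15 prompted the choice of the set because of their change in the very comparison described here, so their values are given as a description and without a test.

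The study sequenced RNA of 6 libraries, 3 after a WT1-specific stealth siRNA (libraries 4, 5 and 6) and 3 after a stealth control siRNA (libraries 1, 2 and 3). All 6 came from lung resident fibroblasts of mice with a TGF-alpha transgene that drives lung fibrosis. The control cells thus come from such mice too, and no cells from mice without the transgene enter the comparison. Such siRNAs are double-stranded RNAs that guide cleavage of a transcript with the same sequence, and the comparison asks how transcript levels differ when Wt1, a zinc finger transcription factor, is lowered. The sources used here do not give the promoter of the transgene, the age of the mice, the siRNA sequences or the time to harvest. Whether the 3 libraries of each siRNA stem from different cultures or mice is not labelled, so each p-value reflects the spread among these libraries alone, which may be technical.

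Ligands of this family are secreted dimers that signal through serine/threonine kinase receptors. BMP2, BMP4, BMP6 and GDF6 lead to phosphorylation of SMAD1, SMAD5 and SMAD9, and activins and myostatin to that of SMAD2 and SMAD3. Antagonists bind the ligands outside the cell: follistatin, the product of Fst, traps activins and myostatin, and gremlin, the product of Grem1, traps BMP2 and BMP4. GDF15 stands apart, since it is induced by cell stress and acts on the receptor GFRAL of the hindbrain with RET as its partner. Gremlin is known to be raised in lungs of patients with idiopathic pulmonary fibrosis.

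Levels are given in CPM, the count of a gene per fixed number of reads, with library sizes scaled by the TMM method. The libraries held 27512156 to 32085698 counts after Wt1 siRNA and 26141921 to 30399809 in controls, so that 3 counts were worth 0.0926 to 0.113 CPM. The lowest count of any member in any library was 42, for Bmp6 in control library 3. Wt1 itself averaged 9.31 ± 1.83 CPM after Wt1 siRNA and 52.0 ± 3.50 CPM after control siRNA (SD, n = 3 each), a log2 fold change of -2.48 ± 0.16 (SE; edgeR quasi-likelihood test, adjusted p = 5.98e-06). Fibroblast markers were the most abundant of the marker lists, with a summed level of 30300 to 37450 CPM after Wt1 siRNA and 19080 to 28270 CPM in controls. Of 7 such markers 4 were higher and 2 lower, and most of the sum was collagen: Col1a1 averaged 17410 ± 2513 CPM after Wt1 siRNA and 7979 ± 2650 CPM in controls, whereas Pdgfra averaged 523 ± 96.4 CPM after Wt1 siRNA and 1180 ± 70.9 CPM in controls (SD, n = 3). The epithelial markers Sftpc and Sftpb stayed below 1 CPM in each library and Scgb1a1 was at 0. The other epithelial markers were detected: Krt8 averaged 19.6 and 19.9 CPM, Epcam 5.30 and 5.57 CPM and Cdh1 4.45 and 7.24 CPM (Wt1 siRNA and control in each pair). Sums over the 6 epithelial markers were 27.2 to 31.6 CPM after Wt1 siRNA and 28.0 to 38.9 CPM in controls. Of 7 mesothelial markers (Wt1 among them) 3 were higher and 3 lower, with sums of 149 to 193 CPM after Wt1 siRNA and 227 to 281 CPM in controls. Of 6 macrophage and leukocyte markers 1, Cd14, was lower, with sums of 30.8 to 36.9 CPM after Wt1 siRNA and 39.9 to 49.6 CPM in controls. Adgre1 stayed below 1 CPM, whereas Lyz2 averaged 21.7 CPM after Wt1 siRNA and 19.7 CPM in controls. Of 5 endothelial markers 1, Kdr, was lower (72.2 to 86.4 CPM after Wt1 siRNA and 88.8 to 109 CPM in controls). The 6 smooth muscle and pericyte markers summed to 275 to 348 CPM after Wt1 siRNA and 312 to 372 CPM in controls. The part of these other cell types in the results below was not tested, and in bulk RNA fewer cells of a type and less RNA per cell cannot be told apart.

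Promoter sequences are shown for the members that differed at least 2-fold between the groups and have a window in the RefSeq table (GRCm38.p6), namely Gdf15, Gdf10, Bmp6 and Grem1. Windows were found for 6 of the 9 members. Gdf6, Bmp2 and Fst had no entry. Each sequence is the 250 bases before the transcription start, 5′ to 3′ on the strand of the gene, from chr8:70632457-70632706 (minus strand) for Gdf15, chr14:33923337-33923586 (plus) for Gdf10, chr13:38345466-38345715 (plus) for Bmp6 and chr2:113758649-113758898 (minus) for Grem1. The start used by the table for Gdf15 lies inside the outermost annotated span of the gene given further on, so its window ends within that span. Capitals mark matches, on either strand, to 6 short motifs: the WT1 and EGR cores GTGGGAG and also GGGGGCG and also GTGGGCG, the ATF4 with C/EBP cores TGATGCA and also TGACGCA, and the SMAD motif GGCGCC. No match overlapped another in these windows.
Gdf15: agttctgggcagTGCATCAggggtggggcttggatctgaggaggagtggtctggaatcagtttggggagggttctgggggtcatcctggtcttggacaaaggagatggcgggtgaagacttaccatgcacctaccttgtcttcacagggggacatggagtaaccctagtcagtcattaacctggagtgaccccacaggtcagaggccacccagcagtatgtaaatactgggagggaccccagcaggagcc
Gdf10: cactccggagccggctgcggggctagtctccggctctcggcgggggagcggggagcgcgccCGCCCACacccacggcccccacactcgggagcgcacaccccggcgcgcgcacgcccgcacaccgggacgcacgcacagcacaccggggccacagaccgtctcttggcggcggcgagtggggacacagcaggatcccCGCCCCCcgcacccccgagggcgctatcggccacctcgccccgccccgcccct
Bmp6: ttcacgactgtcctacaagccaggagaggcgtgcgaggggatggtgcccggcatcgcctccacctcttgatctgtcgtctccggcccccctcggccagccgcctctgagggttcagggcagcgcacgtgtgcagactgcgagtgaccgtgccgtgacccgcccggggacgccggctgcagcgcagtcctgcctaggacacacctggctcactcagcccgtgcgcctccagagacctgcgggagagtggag
Grem1: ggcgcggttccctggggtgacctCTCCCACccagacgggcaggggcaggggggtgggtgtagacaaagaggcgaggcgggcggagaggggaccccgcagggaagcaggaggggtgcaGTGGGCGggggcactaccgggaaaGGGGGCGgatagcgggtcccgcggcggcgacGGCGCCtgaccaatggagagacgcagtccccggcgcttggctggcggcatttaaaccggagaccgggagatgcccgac

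The window of Grem1 held 1 match to each WT1 and EGR core and 1 to the SMAD motif, and that of Gdf10 held GTGGGCG and GGGGGCG, both on the opposite strand. Of the windows not shown, that of Bmp4, whose level did not pass the test, also held GTGGGCG, 40 to 34 bases before the start, and that of Inhba held none of the motifs. The Inhba window, chr13:16011601-16011850 (plus), lies inside the annotated span of the gene, which starts at 16004256, and not before its outermost start. Across all 32851 windows of this length in the table, GTGGGAG was found in 8.25%, GGGGGCG in 14.8%, GTGGGCG in 7.02%, any of these 3 cores in 26.03% and GGCGCC in 9.59%. The window of Gdf15 held TGATGCA on the opposite strand, 238 to 232 bases before the start, a motif found in 2.68% of windows. TGACGCA, found in 1.75% of windows, matched none of the 4 shown, and that of Bmp6 held none of the 6 motifs. The GC content was 78.8% for Gdf10, 72.0% for Grem1, 68.8% for Bmp6 and 56.4% for Gdf15, with a median of 52.4% over all windows, and the part of base composition in the matches was not tested. These matches describe the letters and say nothing of whether a factor binds there.

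Of the 7 members other than Gdf6 and Gdf15, Bmp6 was higher after Wt1 siRNA, Gdf10, Inhba, Fst and Grem1 were lower, and Bmp2 and Bmp4 did not pass (edgeR quasi-likelihood test with Benjamini-Hochberg adjustment over all genes, adjusted p below 0.05). Among all genes tested 9.05% were higher and 10.3% lower, 19.3% in all. Of these 7 the groups did not overlap for 1 higher and 3 lower ones, where 18.1% of all genes were higher and 18.3% lower without overlap, 36.4% in all. Of the 7, 4 passed with at least a 2-fold change, as did 4.94% of all genes. The set was chosen with results of this comparison known, and nothing is read from these counts. The median log2 fold change was -0.67 over the 9 members and 0.00348 over all genes tested. Since the 9 include Gdf6 and Gdf15, which prompted the choice, nothing is read from that median either. The calls of Fst and Bmp6 were lost without control library 3 or without Wt1 siRNA library 4, along with others given below.

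**Figure D1:**
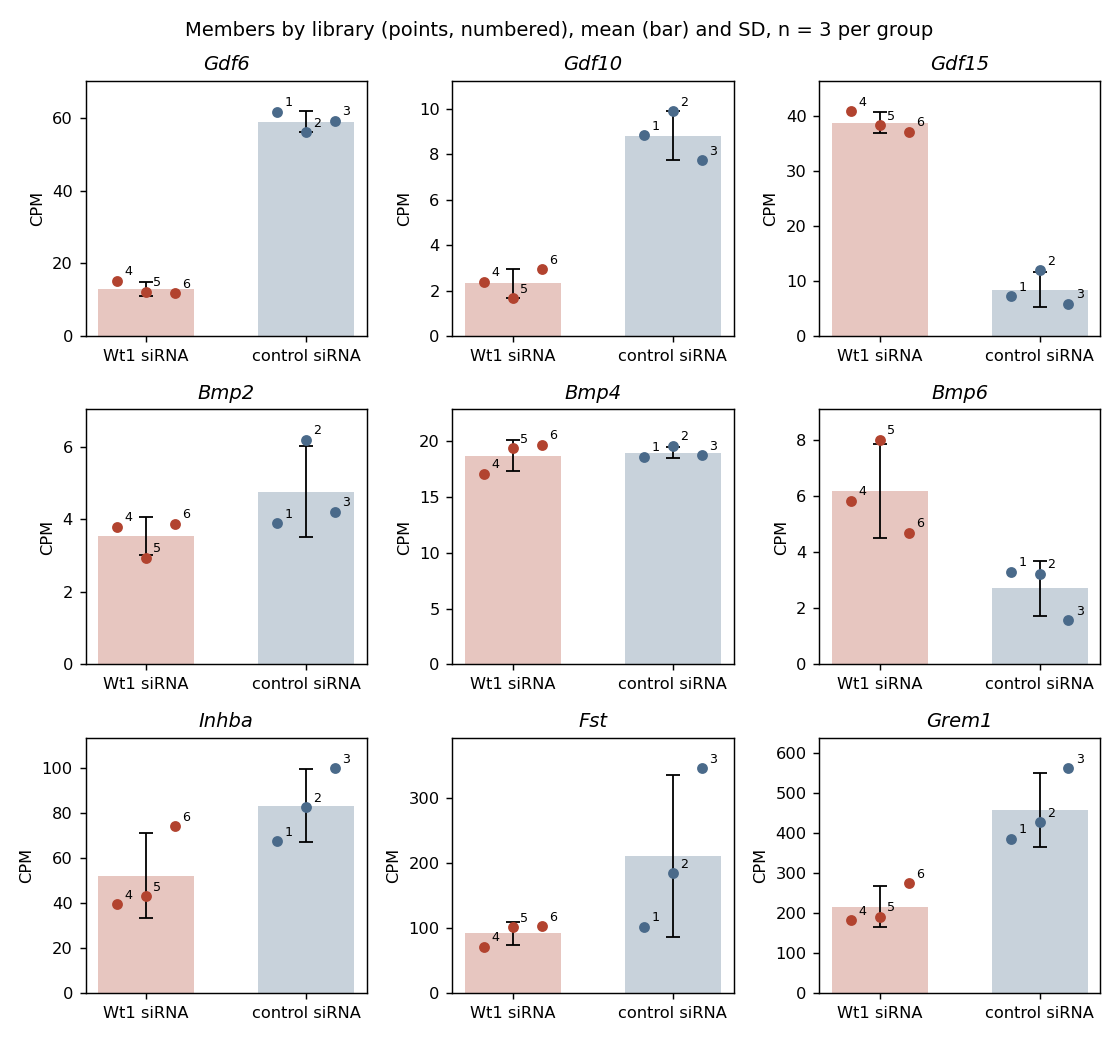
CPM of each member in each library (numbered points), with the group mean as a bar and its SD as a whisker (n = 3 per group), Wt1 siRNA on the left of each panel. Gdf6, Gdf10 and Grem1 lie lower in each Wt1 siRNA library than in each control, Gdf15 and Bmp6 lie higher, and for Bmp4, Inhba and Fst the groups overlap. Bmp2, which did not pass the test, lies lower only just (3.88 CPM in Wt1 siRNA library 6 and 3.89 CPM in control library 1).

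Gdf6, Gdf15 and Gdf10 had the largest fold changes of the 9 members. Gdf6 (gene ID 242316, chromosome 4, 9844372 to 9862345, plus strand) encodes a BMP-type ligand known for its part in joint and skeletal patterning. It stood at 15.2, 12.1 and 11.8 CPM in Wt1 siRNA libraries 4 to 6, against 61.8, 56.0 and 59.2 CPM in control libraries 1 to 3. The 3 libraries of each group lay close together and far from the other group, with means of 13.0 ± 1.89 CPM after Wt1 siRNA and 59.0 ± 2.87 CPM in controls (SD, n = 3). On the log2 scale the fold change was -2.18 ± 0.14 (SE), 4.53-fold lower.

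Gdf15 (gene ID 23886, chromosome 8, 70629393 to 70632470, minus strand) went the other way. It stood at 40.9, 38.3 and 37.1 CPM after Wt1 siRNA, against 7.25, 12.0 and 5.90 CPM in controls. The treated libraries were alike, while control library 2 was the highest control. The means were 38.7 ± 1.92 CPM after Wt1 siRNA and 8.38 ± 3.20 CPM in controls, a log2 fold change of 2.21 ± 0.22 (4.62-fold higher). With each library left out it was 2.01 (without control library 3) to 2.56 (without control library 2). Gfral, the gene of its receptor in the brain, had 0 reads in 5 libraries and 3 reads in Wt1 siRNA library 5, at the limit of detection. Ret, which encodes the partner of GFRAL, had 1.81 ± 0.44 CPM after Wt1 siRNA and 0.881 ± 0.168 CPM in controls (log2 fold change 1.03 ± 0.51, adjusted p = 0.183, not past the threshold).

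Gdf10 (gene ID 14560, chromosome 14, 33923587 to 33936514, plus strand), also called Bmp3b, is the closest relative of Bmp3. It had 2.38, 1.67 and 2.94 CPM after Wt1 siRNA, against 8.83, 9.89 and 7.74 CPM in controls. The highest treated library was below the lowest control, and Gdf10 fell by 1.92 ± 0.27 on the log2 scale (edgeR adjusted p = 5.99e-04). In every alternative fit, each left-out library included, it passed, between -2.12 and -1.72. Its relative Bmp3 had 9.29, 6.70 and 6.41 CPM after Wt1 siRNA, against 16.4, 17.2 and 10.1 CPM in controls. Bmp3 was lower as well (log2 fold change -0.97 ± 0.24, adjusted p = 0.0142), a call lost without control library 1 (adjusted p = 0.0585).

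The BMP ligands did not move together. Bmp6 (gene ID 12161, chromosome 13, 38345716 to 38500314, plus strand), best known as the BMP that induces hepcidin in the liver, had 5.84, 8.01 and 4.69 CPM after Wt1 siRNA, against 3.30, 3.24 and 1.58 CPM in controls. The groups did not overlap, though both spread widely, and Wt1 siRNA library 6 and control library 3 were the lowest of their groups. Bmp6 rose by 1.18 ± 0.34 on the log2 scale (2.27-fold, adjusted p = 0.0278). Its call was lost without control library 3 (0.92, adjusted p = 0.0822), Wt1 siRNA library 4 (1.23, adjusted p = 0.0804) or Wt1 siRNA library 5 (0.96, adjusted p = 0.121). Bmp6 overlaps the gene Txndc5 by 49 bases, and Txndc5 had 99159 reads over the 6 libraries, so that reads in the shared stretch are uncertain. A long non-coding RNA gene without counts of its own here, 4930579J19Rik, shares 1554 bases with the span of Bmp6.

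Bmp2 and Bmp4 encode close relatives that bind the same receptors. Bmp4 (gene ID 12159, chromosome 14, 46383525 to 46390669, minus strand) had 17.1, 19.3 and 19.7 CPM after Wt1 siRNA, against 18.6, 19.6 and 18.8 CPM in controls. The groups overlapped, with a log2 fold change of -0.02 ± 0.14 (SE, adjusted p = 0.947). The span of Bmp4 shares 1805 bases with the long non-coding RNA gene Gm15222 and 84 bases with another, Gm15217. Bmp2 (gene ID 12156, chromosome 2, 133552159 to 133562896, plus strand) had 3.79, 2.93 and 3.88 CPM after Wt1 siRNA, against 3.89, 6.19 and 4.21 CPM in controls. The treated libraries lay just below the lowest control, and control library 2 was the highest. Its log2 fold change of -0.43 ± 0.29 did not pass (adjusted p = 0.344), and was -0.19 without control library 2.

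Inhba (gene ID 16323, chromosome 13, 16004256 to 16031609, plus strand) encodes the beta-A subunit that forms activin A. It had 39.5, 42.9 and 74.1 CPM after Wt1 siRNA, against 67.4, 82.5 and 100 CPM in controls. Wt1 siRNA library 6 lay above control library 1, so the groups overlapped. Inhba had a log2 fold change of -0.67 ± 0.22 that passed narrowly (adjusted p = 0.0495). The call was lost with DESeq2 size factors (adjusted p = 0.0515) and robust shrinkage (adjusted p = 0.0725). It was also lost without control library 2 (adjusted p = 0.0799) or 3 (adjusted p = 0.197) and without Wt1 siRNA library 4 (adjusted p = 0.208) or 5 (adjusted p = 0.154). Without Wt1 siRNA library 6 the log2 fold change was -1.01. An annotated pseudogene, B230303A05Rik, shares 19168 bases with the span of Inhba, and no strand setting is stated for the counts.

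Inhbb, which encodes the beta-B subunit of activin B, fell by 0.99 ± 0.29 on the log2 scale (adjusted p = 0.0331). It had 4.68, 2.86 and 6.73 CPM after Wt1 siRNA, against 11.3, 8.02 and 9.17 CPM in controls. The groups did not overlap, and the call was lost without control library 1 or 3 or Wt1 siRNA library 4 or 5 (adjusted p = 0.123, 0.0787, 0.110 and 0.0923).

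The antagonists Grem1 and Fst were the most abundant members and both were lower. Grem1 (gene ID 23892, chromosome 2, 113748675 to 113758648, minus strand) had 182, 191 and 275 CPM after Wt1 siRNA, against 387, 428 and 563 CPM in controls. The groups were apart, with means of 216 ± 51.3 CPM after Wt1 siRNA and 459 ± 92.4 CPM in controls. Grem1 fell by 1.09 ± 0.17 on the log2 scale (2.13-fold lower, adjusted p = 0.00129). It passed in every alternative fit, and leaving out each library gave -1.30 to -0.91. Set against the ligand Bmp4, the Grem1 count stood at 10.7, 9.88 and 14.0 times the Bmp4 count in libraries 4 to 6, against 20.8, 21.9 and 30.0 times in control libraries 1 to 3. That ratio needs no scaling between libraries and did not overlap between the groups. As Bmp4 differed little (log2 fold change -0.02 ± 0.14), the ratio mostly restates the difference in Grem1. The Grem1 count was 47.9, 65.1 and 70.9 times that of Bmp2 in libraries 4 to 6, against 99.4, 69.1 and 134 times in control libraries 1 to 3, a ratio that overlapped.

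Fst (gene ID 14313, chromosome 13, 114452262 to 114458989, minus strand) had the widest spread of the members in controls. It had 70.8, 101 and 102 CPM after Wt1 siRNA, against 102, 184 and 346 CPM in controls. The controls spread widely, control library 1 sat at the level of Wt1 siRNA libraries 5 and 6, and the groups overlapped narrowly. Fst fell by 1.20 ± 0.33 on the log2 scale (adjusted p = 0.0231). Without control library 3 the log2 fold change was -0.64 (adjusted p = 0.105), and without Wt1 siRNA library 4 it was -1.05 (adjusted p = 0.115). The call was also lost in DESeq2 (adjusted p = 0.0771) and with robust shrinkage (adjusted p = 0.0988). The Fst count was 1.79, 2.36 and 1.38 times that of Inhba in libraries 4 to 6, against 1.51, 2.23 and 3.46 times in control libraries 1 to 3, a ratio of antagonist to activin subunit that overlapped between the groups. A long non-coding RNA gene, Gm41074, shares 2486 bases with the span of Fst.

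**Figure D2:**
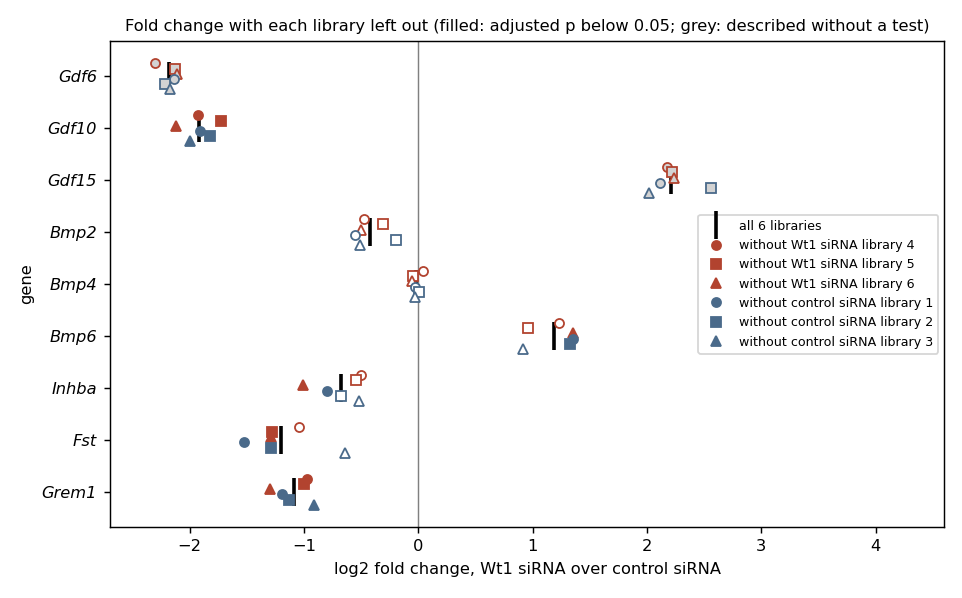
Log2 fold change of each member with all 6 libraries (black bar) and with each library left out (symbols), filled where the edgeR adjusted p was below 0.05 and grey for Gdf6 and Gdf15, which are described without a test. Gdf10 and Grem1 stay filled throughout, while Bmp6, Inhba and Fst lose the call without single libraries and Fst moves to -0.64 without control library 3.

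Inhba, Fst and Grem1 shared a pattern within the groups: all were highest in Wt1 siRNA library 6 and control library 3 and lowest in Wt1 siRNA library 4 and control library 1. Across all genes tested, 13.7% had their highest values in that pair of libraries and 8.83% their lowest in the other pair. Bmp4 also had its lowest values in Wt1 siRNA library 4 and control library 1. The share of genes with both extremes was not counted, and the genes were grouped after their values were seen, so nothing is read from the pattern. Gdf15 and Bmp6 were lowest in Wt1 siRNA library 6 and control library 3, as were 11.8% of genes tested.

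**Figure D3:**
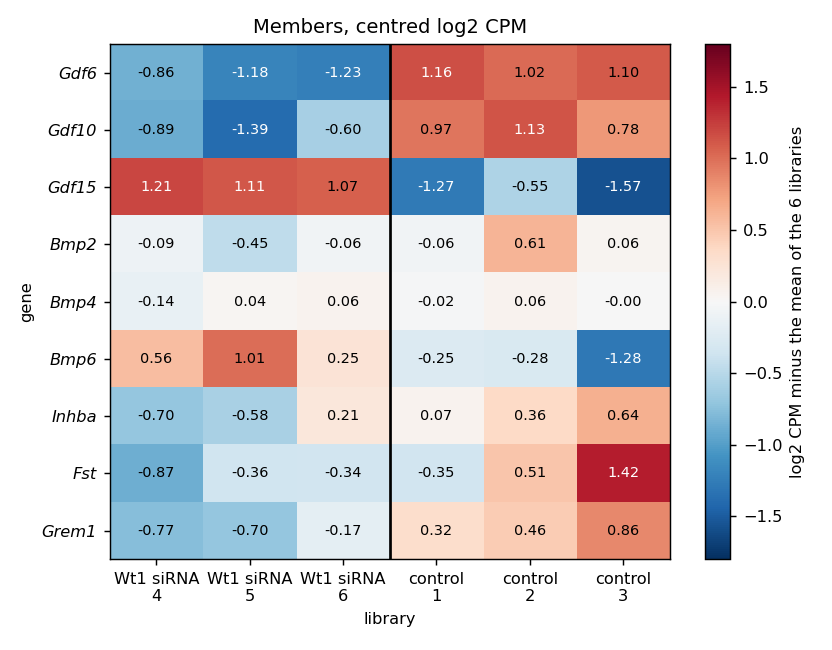
Log2 CPM of each member (rows) in each library (columns), minus the mean over the 6 libraries, with Wt1 siRNA on the left of the black line. Gdf6 and Gdf10 change sign sharply at the line and Gdf15 in the opposite direction, Bmp4 stays within 0.14 of its mean, and Inhba, Fst and Grem1 vary within each group.

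By the rule of smallest distance between centred log2 CPM values over the 6 libraries, among 10592 genes, the nearest genes to Gdf6 were Plce1, which encodes phospholipase C epsilon, at a distance of 0.435, and Wt1 itself at 0.457. Gdf10 was nearest to Tgfbr3 (0.281), which encodes betaglycan, a coreceptor for inhibins, TGF-beta and BMPs. The genes nearest to Gdf15 were Nox4, which encodes an NADPH oxidase (0.782), and Gatm, an enzyme of creatine synthesis (0.829). Bmp6 was nearest to Slc7a7, an amino acid transporter gene (0.297), and Klf4, a transcription factor gene (0.447). Fst was nearest to Samd5 (0.603) and Hmga2, which encodes an architectural chromatin protein (0.703). Grem1 was nearest to Cenpa, the centromeric histone gene (0.120), and Cdc20, an activator of the anaphase-promoting complex (0.179). With 6 libraries in 2 groups, such nearness mostly restates a like difference between the groups. For Fst it also reflects spread within the groups. Samd5 did not pass (edgeR adjusted p = 0.0624). Like Fst, Samd5 and Hmga2 were highest in control library 3, at 13.0 and 453 CPM.

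Levels were compared between genes after division by the length of the longest annotated transcript, as CPM per kilobase (mean ± SD, n = 3). After Wt1 siRNA the order was Grem1 (52.1 ± 12.4), Fst (31.3 ± 6.12), Gdf15 (25.1 ± 1.25), Bmp4 (9.06 ± 0.69), Inhba (8.17 ± 2.98), Gdf6 (3.69 ± 0.53), Bmp6 (1.72 ± 0.47), Bmp2 (0.994 ± 0.147) and Gdf10 (0.447 ± 0.123). In controls it was Grem1 (111 ± 22.3), Fst (72.1 ± 42.5), Gdf6 (16.7 ± 0.81), Inhba (13.0 ± 2.56), Bmp4 (9.19 ± 0.25), Gdf15 (5.43 ± 2.07), Gdf10 (1.69 ± 0.21), Bmp2 (1.34 ± 0.35) and Bmp6 (0.753 ± 0.272). The SDs of Fst and Gdf15 and of Bmp4 and Inhba overlapped after Wt1 siRNA, and in controls those of Grem1 and Fst, of Gdf10 and Bmp2 and of Bmp2 and Bmp6 did, so these neighbours in the order are not told apart. Among the 37 tested ligands, antagonists and extracellular modulators, Gdf6 had rank 15 after Wt1 siRNA and rank 12 in controls. Gdf15 had rank 11 after Wt1 siRNA and rank 15 in controls. The order depends on the length used. With the median transcript length Fst stood at 61.7 and 142 CPM per kilobase, above Grem1 at 52.1 and 111, Bmp4 at 17.4 and 17.6, Inhba at 13.2 and 21.0, and Bmp6 at 9.21 and 4.03 (Wt1 siRNA and control in each pair). In controls Inhba and Bmp4 then lay above Gdf6 at 16.7.

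**Figure D4:**
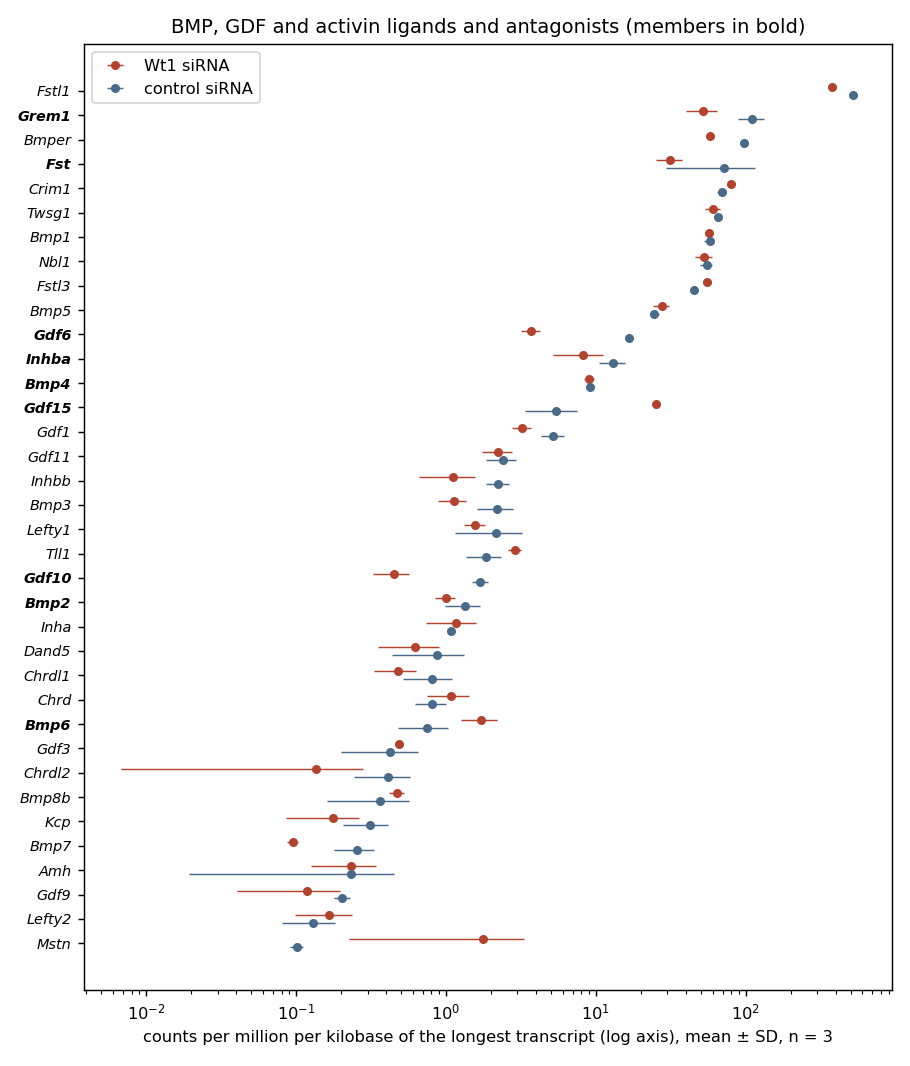
CPM per kilobase of the longest transcript, on a log axis, for tested ligands, antagonists and extracellular modulators (1 antagonist gene is not drawn) ordered by their control mean (points are means, whiskers SD, n = 3 per group, Wt1 siRNA above control in each row, members in bold). Grem1 and Fst lie near the top, and Gdf15 lies above Gdf6 after Wt1 siRNA and below it in controls (the lower whisker of Chrdl2 is shortened to stay on the log axis).

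Other genes of the pathway were read from 5 lists of 90 genes, of which 68 were tested. Of these 7 were higher and 11 lower, where 9.05% of all genes tested were higher and 10.3% lower. The median log2 fold change of the 68 was -0.06. The same shares of all genes apply beside each list count below, and nothing about the pathway is read from these counts. With scaling by library size alone 3 of the 68 were higher and 14 lower. All genes then split into 856 higher and 1829 lower in place of 1284 and 1459, and the median of all genes was -0.08. Among the pathway genes, leaving out Wt1 siRNA library 4 gave 3 higher and 5 lower. Leaving out Wt1 siRNA library 5 gave 4 higher, and leaving out control library 3 gave 6 lower.

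Among 14 tested ligands outside the set 1 was higher and 2 were lower, and the median log2 fold change was -0.04. The gene that rose was Mstn, which encodes myostatin (GDF8), the inhibitor of muscle growth that follistatin binds. It had 61, 68 and 305 reads after Wt1 siRNA, against 9, 7 and 8 reads in controls, or 2.27, 2.46 and 9.54 CPM, against 0.278, 0.246 and 0.301 CPM. All treated libraries lay far above all controls, with library 6 well above the other two. The log2 fold change of Mstn was 4.10 ± 0.64 (adjusted p = 0.00109), and 3.09 without Wt1 siRNA library 6, which lowers the fold more than 1.5 times. Each control count lay below the minimum count of 10 of the filter, so Mstn was tested only through its Wt1 siRNA libraries. The size of the fold change rests on control values near the floor, and the call is given as a description. Bmp3 and Inhbb, given above, were the 2 that fell. Bmp5, which encodes a relative of BMP6, had 105 ± 12.7 CPM after Wt1 siRNA and 94.0 ± 6.42 CPM in controls and did not pass (log2 fold change 0.16 ± 0.12, adjusted p = 0.384). Another 9 ligand genes were too low to test, 3 of them at 0 in each library.

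Of 14 tested antagonists and extracellular modulators outside the set 2 were lower and 0 higher in edgeR, with a median of -0.21. At an unadjusted p below 0.05, 2 were higher, and adjusted calls of higher genes numbered 2 in DESeq2 and 1 in limma-voom. Bmper, which encodes a secreted modulator of BMPs, had 231, 213 and 218 CPM after Wt1 siRNA, against 392, 353 and 368 CPM in controls. The groups were well apart, and it fell by 0.75 ± 0.10 on the log2 scale (adjusted p = 3.81e-04). Fstl1, a follistatin-like glycoprotein gene and the most abundant gene of these lists, had 1418 ± 39.9 CPM after Wt1 siRNA and 1964 ± 87.0 CPM in controls, and fell by 0.47 ± 0.09 (adjusted p = 0.00405). The gene of the classical antagonist noggin, Nog, was too low to test, at no more than 0.564 CPM.

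Of 14 tested receptor genes 3 were higher and 4 lower, where 9.05% of all genes tested were higher and 10.3% lower. The receptor genes went in both directions, with a median log2 fold change of 0.10. Tgfbr3 fell most, with 23.6, 16.4 and 26.4 CPM after Wt1 siRNA, against 76.2, 76.4 and 63.7 CPM in controls. The groups were far apart (log2 fold change -1.70 ± 0.17, adjusted p = 7.96e-05). Acvrl1, a type I receptor of the BMP branch, fell by 0.46 ± 0.11 (adjusted p = 0.0135, and 0.0898 without Wt1 siRNA library 4). Bambi, a pseudoreceptor without a kinase domain that is itself induced by BMP signalling, fell by 0.76 ± 0.21 (adjusted p = 0.0264). That call was lost without control library 3 (adjusted p = 0.0971) or without Wt1 siRNA library 4, 5 or 6 (adjusted p = 0.0882, 0.0771 and 0.0542). Bmpr2, the BMP type II receptor gene mutated in human heritable pulmonary arterial hypertension, rose by 0.37 ± 0.10 (adjusted p = 0.0215). The call of Bmpr2 was lost with library size scaling (adjusted p = 0.0778) and without Wt1 siRNA library 4 (adjusted p = 0.130). The others that passed, named after their values were seen, were Acvr1 and Eng, which were higher, and Bmpr1a, which was lower (log2 fold changes 0.39 ± 0.11, 0.46 ± 0.15 and -0.36 ± 0.11; adjusted p = 0.0323, 0.0473 and 0.0367). With library size scaling or without Wt1 siRNA library 4, 0 receptor genes were higher, where an unadjusted edgeR p below 0.05 gave 3 in each case. With library 4 left out 1 was lower.

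Among 14 SMAD genes and SMAD regulators 2 were higher and 1 lower, with a median of 0.01. Smurf1, the gene of a ubiquitin ligase that marks SMAD1 and SMAD5 for breakdown, had 127, 122 and 123 CPM after Wt1 siRNA, against 73.3, 76.7 and 85.5 CPM in controls. The groups were apart (log2 fold change 0.66 ± 0.10, adjusted p = 0.00120). Skil, which encodes the SMAD corepressor SnoN, rose by 0.51 ± 0.11 (adjusted p = 0.00538). Smad3, a mediator of activin and TGF-beta signals, fell by 0.38 ± 0.12 (adjusted p = 0.0384). The call of Smad3 was lost without control library 3 (adjusted p = 0.151) or without Wt1 siRNA library 4, 5 or 6 (adjusted p = 0.140, 0.132 and 0.0538). The BMP mediators Smad1, Smad5 and Smad9 did not pass (log2 fold changes -0.02 ± 0.12, 0.03 ± 0.12 and -0.18 ± 0.28).

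Of 12 tested BMP response genes 2 were lower and 1 higher, with a median of -0.23. Atoh8, a transcription factor gene induced by BMPs, had 4.20, 2.39 and 3.66 CPM after Wt1 siRNA, against 14.4, 9.81 and 7.74 CPM in controls. The groups did not overlap (log2 fold change -1.64 ± 0.29, adjusted p = 0.00232). The classical response genes of the Id family were not uniform. Id1 had 12.9, 16.3 and 15.9 CPM after Wt1 siRNA, against 13.1, 14.2 and 13.0 CPM in controls, and did not pass (log2 fold change 0.17 ± 0.16, adjusted p = 0.536). Id3 had 342 ± 57.1 CPM after Wt1 siRNA and 411 ± 89.5 CPM in controls and did not pass (-0.26 ± 0.16, adjusted p = 0.284). Id2 had 28.3, 34.6 and 18.6 CPM after Wt1 siRNA, against 37.5, 38.6 and 50.2 CPM in controls, groups that did not overlap. It fell by 0.63 ± 0.20 on the log2 scale (adjusted p = 0.0476), which was lost without any 1 of the libraries other than Wt1 siRNA library 5 (adjusted p = 0.0537 to 0.190). Snai2, which encodes the transcription factor Slug, rose by 0.56 ± 0.18 (adjusted p = 0.0498). Its call was lost with library size scaling (adjusted p = 0.112) and with each library left out (adjusted p = 0.0513 to 0.134).

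**Figure D5:**
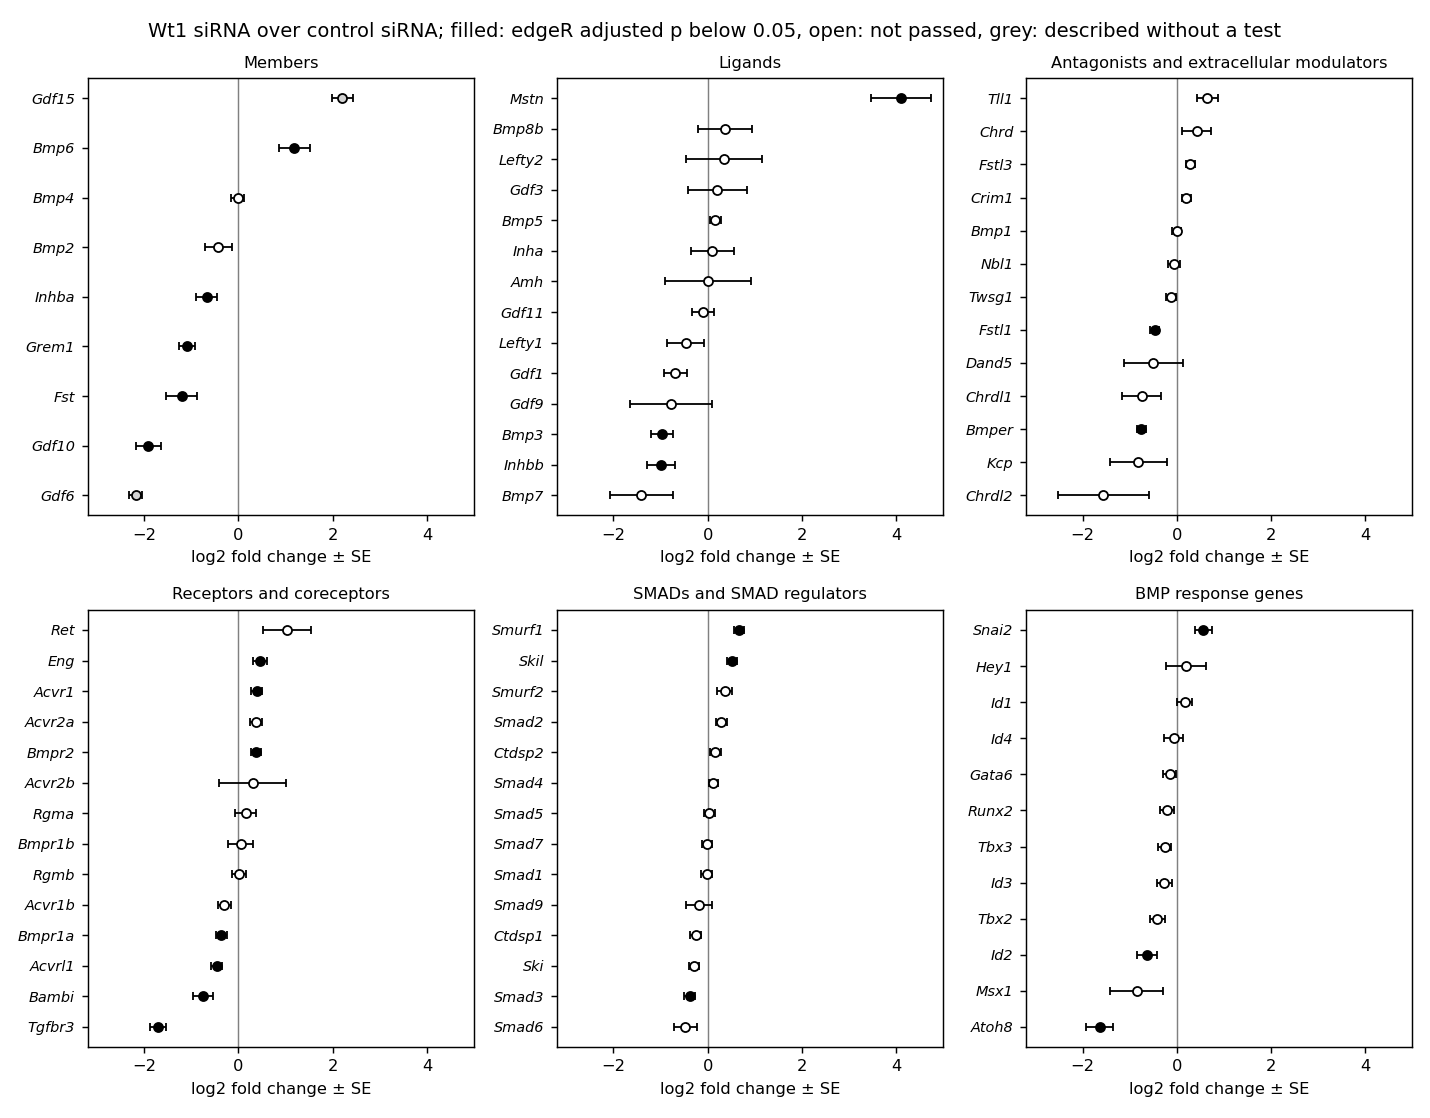
Log2 fold change (Wt1 siRNA over control siRNA) with its SE for the members and for tested genes of each pathway list (1 antagonist gene is not drawn), filled where the edgeR adjusted p was below 0.05 and grey for Gdf6 and Gdf15, which are described without a test. Mstn among the ligands, Tgfbr3 among the receptors and Atoh8 among the response genes stand farthest from 0, and SMAD genes stay between -0.47 and 0.66.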

How the data were processed

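The authors deposited a table of raw counts of reads per gene for 24061 Entrez gene IDs in each of the 6 libraries. Tools listed in the submitters' processing notes are TopHat, DESeq, bcl2fastq and CASAVA 1.8, with mm10 (GRCm38) as the build. Their roles and order, the counting tool, the annotation and the strand setting were not found in the sources used here, and reads of overlapping genes may be shared. Groups came from the sample titles. Gene IDs were matched to RefSeq GRCm38.p6 (23976) or GENCODE (7), and 78 stayed unnamed. The unnamed IDs took 0.435% to 1.71% of each library.

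Counts were tested with edgeR 4.0.16 in R 4.3.3 (quasi-likelihood F test, TMM, filterByExpr, siRNA group as the only term, Benjamini-Hochberg adjustment over 14190 genes at 0.05). Each SE was obtained as the size of the log2 fold change over the root of its F statistic. Centred log2 CPM used a prior count of 2. Alternatives were DESeq2 1.42.0, limma-voom (limma 3.58.1), DESeq2 size factors, library size scaling, robust shrinkage, a filter with a minimum count of 50, no filter, and each library left out. Tested on simulated counts for this comparison (14190 genes), the procedure recovered 32.3%, 75.1% and 87.9% of genes changed 1.5-, 2- and 4-fold. The simulations, pooled here, changed far fewer genes than passed in the data, so these shares need not hold for the data.

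Named were the 9 members, Wt1, up to 4 genes per pathway list that passed, taken by ascending p, Id1, Id2 and Id3, and the 2 genes nearest to each member that changed at least 2-fold. Other genes were named after their values were seen. Members and lists were chosen with earlier results of these data known. Protein sequences were not used here. Values of some single genes are not reported here, though counts over lists include them.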

Additional observations from a re-analysis of the deposited data

How the results depend on the processing

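Gdf10 and Grem1 kept their direction and their call in all 13 alternatives, while Bmp6 lost its call in 3, Fst in 4 and Inhba in 6. Over all 9 members, Gdf6 and Gdf15 included, the number lower was 3 with robust shrinkage, in place of 5. Of all 14190 genes tested, 1467 were lower with that setting, in place of 1459. With a library left out the number of members lower was 3 to 5, and the number higher 1 to 2, in place of 2. Since Gdf6 and Gdf15 prompted the choice of the set, nothing is read from these counts of members. Other pathway genes numbered 3 higher with library size scaling, in place of 7, and with a library left out 3 to 6 higher and 5 to 9 lower. All genes numbered 579 to 1253 higher and 785 to 1406 lower with a library left out. Bmp4, never called, changed sign when control library 2 (0.00409) or Wt1 siRNA library 4 (0.0435) was left out, within -0.0575 to 0.0435 over the 6 libraries. The cause was not tested, beyond the smaller number of libraries where one was left out. Of the 90 pathway genes 22 were too low to test at this depth. No paired analysis was possible because the groups share no replicate number.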
